A study of Mus musculus with 12 samples.

Results

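The Zfp-named zinc finger genes are protein-coding mouse genes whose symbol is Zfp followed by a number. They were taken by name, with 2 genes left out, of which Zfp36 encodes an RNA-binding protein with another type of finger, and were kept where the FPKM of a gene, summed over its transcripts, had a mean of 1 or more over the 12 libraries. FPKM counts fragments scaled by transcript length and library depth. Of 336 genes with such names in the table, 270 passed, and these members are among the 11378 of 23422 genes that were tested. The members were thus chosen by name and by their mean FPKM over all libraries, so that level is a description. Just inside the limit were Zfp647 at 1.00, Zfp946 at 1.02 and Zfp960 at 1.02 FPKM, and just outside it were Zfp827 at 0.970, Zfp446 at 0.950 and Zfp708 at 0.888 FPKM.

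Most of these genes encode C2H2 proteins, in which a row of short fingers, each folded around a zinc ion, reads DNA. Many also carry a KRAB box, which binds the co-repressor TRIM28 and through it the histone methyltransferase SETDB1, and this machinery is known for silencing retroelements and imprinted loci. KRAB zinc finger genes lie in clusters that grew by tandem duplication, and the copies in a cluster can be close in sequence.

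RNA was sequenced from cultured primary endothelium of the mouse lung, taken from C57BL/6J (wild type) mice or from mice lacking both MLK2 and MLK3 (MLK2-/-MLK3-/-, here the double knockout), to find what lies downstream of these mixed lineage kinases. Each genotype was cultured either in normoxia, at 21% oxygen, or in hypoxia, for 90 min at 1% oxygen, which gives 4 groups of 3 libraries. The labels give neither the age of the mice nor whether a group's libraries were separate animals or cultures, so the p-values rest on the spread among these libraries, which may be technical. Depth, estimated from the steps of low FPKM values, was 21100000 to 25900000 fragments per library, and the double knockout hypoxia libraries lay between 21100000 and 23000000. Endothelial markers were high in every library (11 of 12 at a mean of 1 FPKM or more, with a summed level of 4276 to 4522 FPKM). Map3k10, the gene of MLK2, had 18.8 ± 0.450 FPKM in wild type normoxia, 17.5 ± 1.43 FPKM in wild type hypoxia, 0.148 ± 0.0193 FPKM in double knockout normoxia and 1.17 ± 0.157 FPKM in double knockout hypoxia (SD, n = 3). Over both oxygen levels the genotypes did not overlap (6 libraries each, exact two-sided permutation p = 0.00216). Within the double knockout Map3k10 was higher in hypoxia, by 0.92 on the log2(FPKM + 1) scale (limma, adjusted p = 3.12e-06), and this response differed from that of wild type (adjusted p = 0.00375). Map3k11, the gene of MLK3, had 33.8 ± 1.61 FPKM in wild type and 11.4 ± 0.455 FPKM in the double knockout (SD, n = 6 each, exact two-sided permutation p = 0.00216).

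The members were expressed at low levels. Their mean FPKM had a median of 4.50, against 12.7 over all genes tested. The highest was Zfp207, a spindle and kinetochore protein, with a mean of 102 FPKM, followed by Zfp260, Zfp740, Zfp330 and Zfp91. A search of the translated GENCODE M21 coding sequences found a KRAB box in 151 members and none in 118, and Zfp125 had no coding model there. Members with a KRAB box had a median of 12 fingers, a median level of 3.65 FPKM and a median transcript GC content of 43.0%. Those without one had 8 fingers, 6.72 FPKM and 51.4%, and the GC median of all genes was 50.3%. Chromosome 7 carried 69 members (25.6%), against 7.22% of all genes tested, chromosome 17 carried 36 and chromosome 13 carried 24.

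After 90 min of hypoxia the zinc finger genes were lower as a group of names, in both genotypes. In wild type cells 77 members fell and 7 rose (limma, adjusted p under 0.05 over all genes), which is 28.5% and 2.59% of the members, while over all genes tested 10.4% fell and 10.5% rose (20.8% in either direction). The median log2 fold change was -0.17 for the members and 0.00 for all genes. In double knockout cells 152 members fell and 11 rose, or 56.3% and 4.07%, against 19.6% and 19.6% of all genes (39.3% in either direction), and the median was -0.27 for the members and 0.01 for all genes. All fold changes are on the log2(FPKM + 1) scale, where the added 1 shrinks the changes of such weakly expressed genes. In such bulk samples, a fall in RNA per cell and a smaller share of the cells that express a gene cannot be told apart.

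The lower level was seen in every hypoxic library. Each member's deviation from its own mean over the 12 libraries was taken on the log2(FPKM + 1) scale, and the median over members was computed per library. It was 0.10 to 0.13 in wild type normoxia and -0.07 to -0.03 in wild type hypoxia. The double knockout ranged from 0.08 to 0.11 in normoxia and from -0.20 to -0.17 in hypoxia. The normoxic and hypoxic libraries did not overlap in either genotype, the double knockout hypoxia libraries were lowest, and the median over all genes stayed between -0.02 and 0.01 in every library. The summed level of the members was 2141 to 2185 FPKM in wild type normoxia, 1970 to 2028 FPKM in wild type hypoxia, 2085 to 2193 FPKM in double knockout normoxia and 1862 to 1891 FPKM in double knockout hypoxia.

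**Figure D1:**
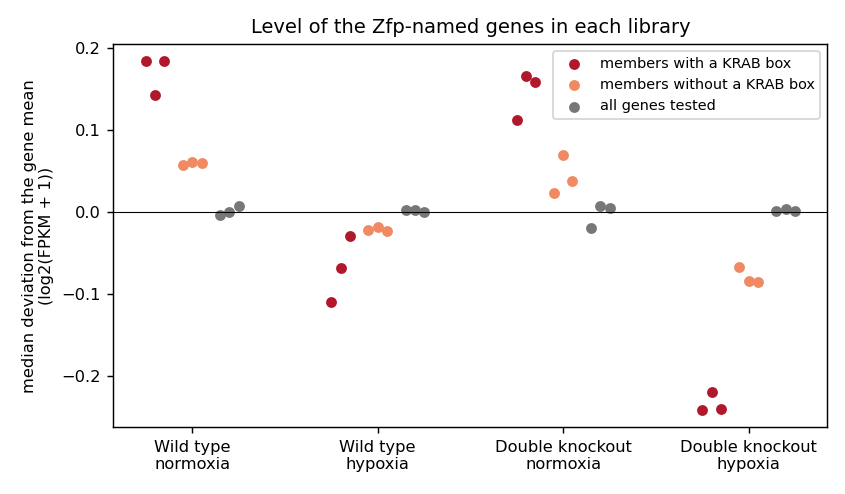
Median deviation of the log2(FPKM + 1) values from each gene's mean over the 12 libraries, 1 point per library and gene class, by group on the horizontal axis. Members with a KRAB box are 0.11 to 0.18 above their means in the normoxic libraries and 0.22 to 0.24 below them in double knockout hypoxia, while the points of all genes tested stay near 0.

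The KRAB class carried most of the falls. In wild type cells 59 of the 151 members with a KRAB box fell (39.1%) and 1 rose, Zfp12, with a median log2 fold change of -0.23. Of the 118 members without one, 18 fell (15.3%) and 6 rose, with a median of -0.06. In double knockout cells 106 members with a KRAB box fell (70.2%) and 3 rose, with a median of -0.41, and 45 members without one fell (38.1%) and 8 rose, with a median of -0.15. Of the 91 tested zinc finger genes under other names, 15 were lower and 12 higher in wild type. In the double knockout 29 of them were lower and 12 higher. Over all genes tested 10.4% fell and 10.5% rose in wild type, and 19.6% went each way in the double knockout. Falls thus outnumbered rises among these 91 genes in both genotypes. Their medians, -0.05 and -0.09, were less negative than those of either class of members. In wild type, though, -0.05 was close to the -0.06 of members without a KRAB box. Their share called lower there, 15 of 91, was also near the 15.3% of that class. In the double knockout their share lower, 29 of 91, was under its 38.1%.

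**Figure D2:**
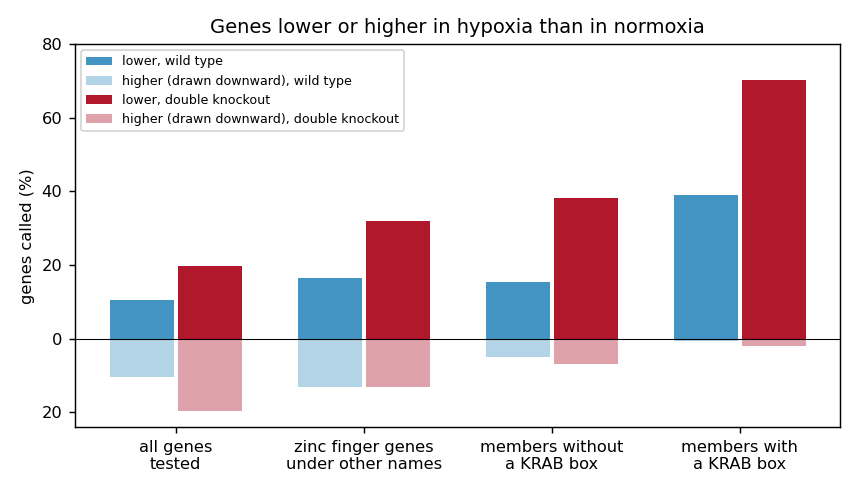
Percentage of genes past an adjusted p of 0.05 in limma for hypoxia against normoxia, drawn upward where lower and downward where higher in hypoxia, for wild type (blue) and double knockout (red). The share that fell is 39.1% and 70.2% for members with a KRAB box, against 10.4% and 19.6% of all genes tested.

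Leaving out wild type hypoxia library 1 reduced the members called in the wild type comparison from 84 to 49, and without wild type normoxia library 3 or wild type hypoxia library 2 there were 55. In each of these the lower calls stayed the larger part, at 46 or more.

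Low level and base composition move with the KRAB class, so the counts were also read within bands of each. Among genes with a mean of 2 to 5 FPKM, 31 of 89 members fell in wild type (34.8%), against 13.0% of all genes of that band, and 58 fell in the double knockout (65.2% against 24.0%). Among members of 10 FPKM or more the shares were 20.0% and 36.4%, against 8.62% and 16.3% of all genes at that level. All genes were also split into 4 bands of equal size by GC content. In the band of lowest GC content, 42.3% of 130 members fell in wild type and 66.9% in the double knockout, against 11.8% and 18.4% of all genes there. In the band of highest GC content the shares of 48 members were 6.25% and 39.6%, against 8.45% and 21.8% of all genes. In wild type, then, the share of members called lower in the band of highest GC content was not above that of all its genes. The members of that band still leaned lower in wild type, with a median log2 fold change of -0.091 against 0.001 for all its genes. Their changes were negative in 70.8%, against 49.4% of all genes there. Members with and without a KRAB box were also split at the members' median GC content. In wild type 47% of 100 KRAB members at or under it fell, and 23.5% of 51 over it. Without a KRAB box 23.5% of 34 and 11.9% of 84 fell, against 10.4% of all genes. The double knockout shares were 73% and 64.7% with a KRAB box and 41.2% and 36.9% without, against 19.6%. The parts of GC content and the KRAB box were not tested. With the trend on GC content and length removed from each library, 70 members fell and 8 rose in wild type, and 149 fell and 15 rose in the double knockout.

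By number of fingers, the share of members that fell in wild type was 14.3% of 49 members with 0 to 5 fingers, 22.2% of 81 with 6 to 10, 40.2% of 92 with 11 to 15 and 31.9% of 47 with 16 or more, against 10.4% of all genes. The double knockout shares were 40.8%, 49.4%, 68.5% and 59.6%, against 19.6%. They were highest at 11 to 15 fingers and lower again above that. Members with a KRAB box have more fingers, and whether the number of fingers matters beyond the KRAB box was not tested.

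Zfp760 (ENSMUSG00000067928, GRCm38 chromosome 17, 21707741 to 21725636), a KRAB gene with 16 fingers, showed the largest fall in the double knockout. Its level was 4.65, 4.43 and 4.45 FPKM in wild type normoxia, 2.31, 2.55 and 3.02 FPKM in wild type hypoxia, 5.16, 4.81 and 4.77 FPKM in double knockout normoxia and 1.39, 1.57 and 1.44 FPKM in double knockout hypoxia. Both hypoxic groups lay below both normoxic groups, and the double knockout hypoxia libraries lay below every other library. The log2 fold change was -0.61 (SE 0.0755, adjusted p = 0.000281) in wild type and -1.26 (SE 0.0755, adjusted p = 4.56e-07) in the double knockout. In plain FPKM, without the added 1, the hypoxic mean was 58.3% and 29.8% of the normoxic mean.

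Zfp763 (ENSMUSG00000067430, GRCm38 chromosome 17, 33016863 to 33033402), a KRAB gene with 13 fingers, had 3.16, 2.94 and 3.81 FPKM in wild type normoxia and 1.72, 1.98 and 2.31 FPKM in wild type hypoxia, then 3.00, 3.29 and 3.53 FPKM in double knockout normoxia and 0.987, 0.552 and 1.21 FPKM in double knockout hypoxia. Its hypoxic libraries did not overlap the normoxic ones in either genotype, and its log2 fold changes were -0.52 (SE 0.129, adjusted p = 0.0155) and -1.17 (SE 0.129, adjusted p = 3.80e-05). Zfp329 (ENSMUSG00000057894, GRCm38 chromosome 7, 12804977 to 12818858), in which no KRAB box was found, had 6.44, 6.88 and 7.21 FPKM, 4.65, 4.62 and 5.29 FPKM, 7.57, 8.07 and 6.65 FPKM and 3.62, 2.67 and 3.22 FPKM in the same order of groups. It fell by 0.42 and 1.02 on the log2 scale (adjusted p = 0.00804 and 9.67e-06), again with no overlap.

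Zfp442 (ENSMUSG00000068130, GRCm38 chromosome 2, 150407141 to 150451486), a KRAB gene with 17 fingers, had the largest fall in wild type. Its level was 5.28, 5.02 and 4.92 FPKM in wild type normoxia, 2.18, 3.18 and 3.03 FPKM in wild type hypoxia, 4.51, 4.71 and 4.71 FPKM in double knockout normoxia and 1.88, 1.97 and 2.21 FPKM in double knockout hypoxia. The log2 fold changes were -0.69 (SE 0.0933, adjusted p = 0.000529) and -0.90 (SE 0.0933, adjusted p = 2.40e-05). Zfp3 (ENSMUSG00000043602, GRCm38 chromosome 11, 70764209 to 70772928), with no KRAB box found, went from 2.37, 2.67 and 2.83 FPKM to 1.14, 1.00 and 2.00 FPKM in wild type and from 2.65, 3.55 and 3.41 FPKM to 1.18, 1.15 and 1.01 FPKM in the double knockout, with log2 fold changes of -0.63 (SE 0.138, adjusted p = 0.00854) and -0.99 (SE 0.138, adjusted p = 0.000188). In both genes every hypoxic library was below every normoxic library.

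Zfp961, Zfp72 and Zfp677 completed the 6 largest falls in wild type. Their log2 fold changes were -0.59, -0.57 and -0.55 in wild type (adjusted p = 0.00441, 0.0107 and 0.00305) and -0.57, -0.51 and -0.59 in the double knockout (adjusted p = 0.00221, 0.00947 and 0.000666). Zfp229, a KRAB gene of the same cluster as Zfp760, was 4.53 ± 1.63 FPKM in double knockout normoxia and 1.91 ± 0.564 FPKM in double knockout hypoxia (SD, n = 3), a log2 fold change of -0.90 (SE 0.198, adjusted p = 0.00366). In wild type its change was -0.24 (SE 0.198, adjusted p = 0.421) and the groups overlapped.

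Among members at higher levels, Zfp266, a KRAB gene, had 21.6, 23.2 and 22.0 FPKM in wild type normoxia and 16.2, 15.6 and 18.4 FPKM in wild type hypoxia. Double knockout cells had 19.5, 18.6 and 18.8 FPKM at normal oxygen against 11.4, 12.1 and 12.1 FPKM after hypoxia. Its log2 fold changes with hypoxia were -0.40 (SE 0.0579, adjusted p = 0.000790) and -0.63 (SE 0.0579, adjusted p = 1.05e-05), and the 4 groups descended without overlap in the order wild type normoxia, double knockout normoxia, wild type hypoxia and double knockout hypoxia. The gap between the middle groups was narrow, with the highest wild type hypoxia library at 18.4 FPKM and the lowest double knockout normoxia library at 18.6 FPKM. The most abundant member, Zfp207, did not pass the test in either genotype, at 103 ± 3.73 FPKM and 105 ± 1.31 FPKM in wild type normoxia and hypoxia and 97.0 ± 4.28 FPKM and 103 ± 1.90 FPKM in the double knockout (SD, n = 3). The double knockout rise was called in 3 of 23 alternative settings (adjusted p down to 0.0402), among them without double knockout normoxia library 2.

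**Figure D3:**
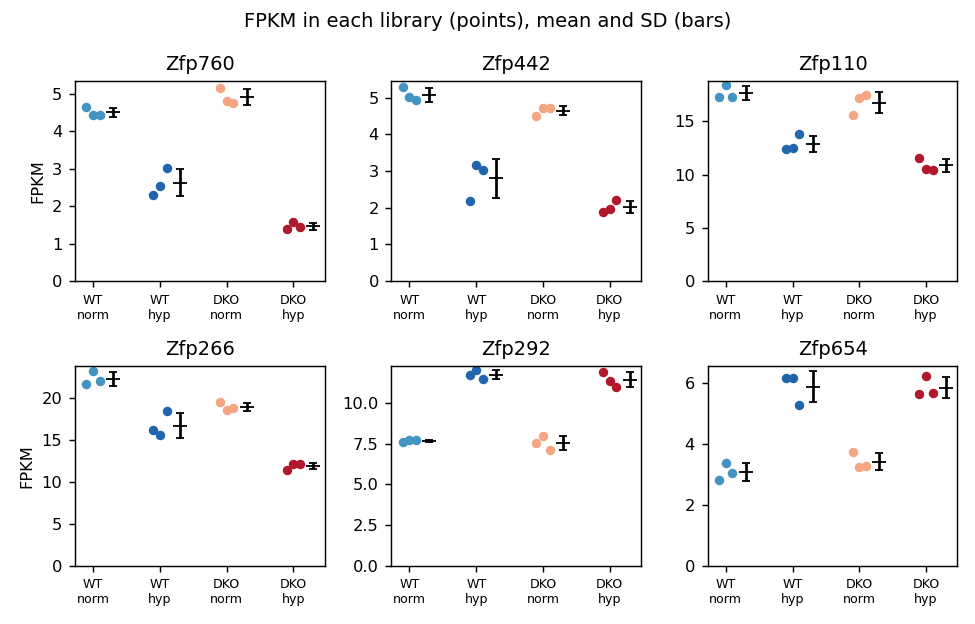
FPKM of 6 members in each library (points), with the mean and SD of 3 libraries beside them, by group (WT, wild type; DKO, double knockout; norm, normoxia; hyp, hypoxia). Zfp760, Zfp442, Zfp110 and Zfp266 are lower in hypoxia in both genotypes, and Zfp292 and Zfp654 are higher.

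The members that rose were few and mostly without a KRAB box. Zfp654 (ENSMUSG00000047141, GRCm38 chromosome 16, 64780347 to 64851652) had 2.81, 3.38 and 3.05 FPKM in wild type normoxia, 6.16, 6.18 and 5.28 FPKM in wild type hypoxia, 3.73, 3.24 and 3.28 FPKM in double knockout normoxia and 5.63, 6.23 and 5.69 FPKM in double knockout hypoxia. All 6 hypoxic libraries lay above all 6 normoxic libraries, and the log2 fold changes were 0.75 (SE 0.0785, adjusted p = 7.13e-05) and 0.63 (SE 0.0785, adjusted p = 8.05e-05).

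Zfp292 (ENSMUSG00000039967, GRCm38 chromosome 4, 34803113 to 34882960) had 7.60, 7.74 and 7.69 FPKM in wild type normoxia and 11.7, 12.0 and 11.4 FPKM in wild type hypoxia, and 7.51, 7.94 and 7.10 and 11.9, 11.3 and 11.0 FPKM in the double knockout. The log2 fold changes of 0.55 (SE 0.0501, adjusted p = 2.39e-05) and 0.54 (SE 0.0501, adjusted p = 1.11e-05) were nearly equal in the genotypes. Zfp91 (ENSMUSG00000024695, GRCm38 chromosome 19, 12763660 to 12796126), a ubiquitin ligase of the NF-kB pathway, had 32.5, 31.2 and 31.0 FPKM, 41.3, 39.8 and 38.4 FPKM, 29.5, 31.4 and 31.3 FPKM and 43.0, 44.0 and 42.3 FPKM in wild type normoxia and hypoxia and double knockout normoxia and hypoxia. Its log2 fold changes were 0.33 (SE 0.0397, adjusted p = 0.000246) and 0.48 (SE 0.0397, adjusted p = 5.61e-06), and in both genes no hypoxic library overlapped a normoxic one.

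Zfp131, a BTB-domain zinc finger protein, also rose in both genotypes, by 0.20 in wild type (adjusted p = 0.0212) and 0.31 in the double knockout (adjusted p = 0.000791). Its wild type result lost the call in 4 of 23 alternative settings (adjusted p up to 0.0911), which included leaving out wild type normoxia library 3 and wild type hypoxia libraries 1 and 2. In wild type Zfp697 rose by 0.27 (adjusted p = 0.0122) and Zfp771 by 0.23 (adjusted p = 0.0335). The result of Zfp697 lost the call in 2 of 22 alternative settings (adjusted p up to 0.0511), namely when wild type normoxia library 3 and wild type hypoxia library 1 were in turn left out. That of Zfp771 lost the call in 6 of 22 alternative settings (adjusted p up to 0.132), which included leaving out wild type normoxia libraries 1, 2 and 3 and wild type hypoxia libraries 1 and 2. In the double knockout Zfp618 rose by 0.39 (adjusted p = 0.0289), and so did Zfp106, an RNA-binding protein, by 0.38 (adjusted p = 0.00534) and Zfp609 by 0.37 (adjusted p = 0.0330). Zfp106 kept its call in every setting. Zfp618 lost the call in 5 of 22 alternative settings (adjusted p up to 0.105), which included leaving out double knockout normoxia libraries 1 and 3 and double knockout hypoxia libraries 1 and 2. Zfp609 lost the call in 7 of 22 alternative settings (adjusted p up to 0.134), which included leaving out double knockout normoxia libraries 2 and 3 and double knockout hypoxia library 3.

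The hypoxia comparisons of the genotypes share no library, and their calls were set side by side. Both use the same estimate of each gene's spread over all 12 libraries, so the calls are not fully independent. Of the members, 71 fell in both, which is 92.2% of the 77 that fell in wild type and 46.7% of the 152 that fell in the double knockout. Over all genes tested the same shares were 80.1% and 42.2%. The 71 make up 26.3% of the members, while 8.30% of all genes tested fell in both. Zfp654, Zfp292, Zfp91 and Zfp131 were the 4 that rose in both, and no member was called in opposite directions. Across members, Pearson's r of the log2 fold changes was 0.76, and across all genes tested it was 0.73. Averaged over both genotypes, 166 members fell and 13 rose with hypoxia, against 22.9% and 22.7% of all genes. Zfp760 had the largest average fall, at -0.94 (adjusted p = 1.55e-07), and Zfp654 the largest average rise, at 0.69 (adjusted p = 2.28e-06), while Zfp292, at 0.55, had the smallest adjusted p among those that rose (4.04e-07).

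**Figure D4:**
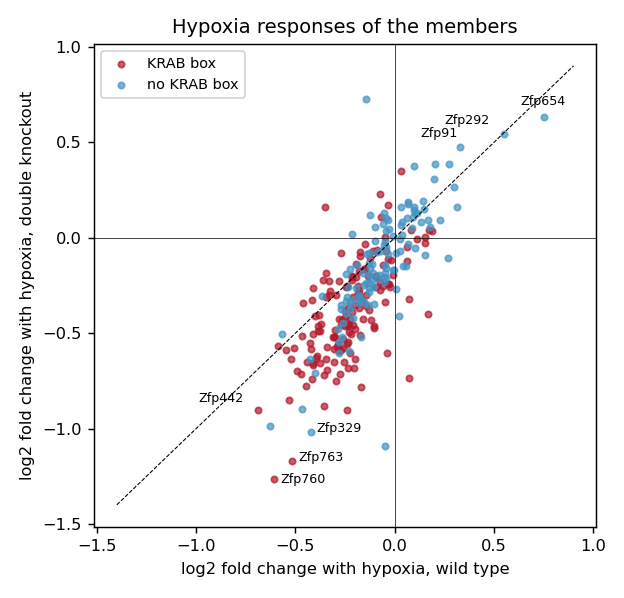
Log2 fold change of each member with hypoxia in wild type (horizontal) and double knockout (vertical), on the log2(FPKM + 1) scale, coloured by whether a KRAB box was found; the dashed line marks equal changes. Most KRAB members lie at the lower left, many of them under the dashed line, and Zfp654, Zfp292 and Zfp91 lie at the upper right.

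The response itself was tested for a difference between the genotypes. Its log2 change was more negative in the double knockout for 201 of 270 members (74.4%), against 49.1% of all genes tested, and the median difference over the members was -0.12. Among members with a KRAB box it was more negative in 123 of 151 (81.5%), and among those without in 77 of 118 (65.3%). For a single gene the test had little to call, with 1 member and 0.193% of all genes past the threshold (0.123% lower and 0.0703% higher). That member was Zfp760, with a difference of -0.66 (SE 0.107, adjusted p = 0.0354), and its call was lost in 13 of 21 alternative settings, with the adjusted p reaching 0.125. No member was called with a more positive response in the double knockout (limma). At an unadjusted p under 0.05 the response was more negative in 47 members and more positive in 9, against 934 and 886 of all genes. The lower estimated depth of the double knockout hypoxia libraries moved with this difference, and its part was not tested. Over all genes tested the response to hypoxia was also wider both ways in the double knockout. The quartiles of its log2 fold changes were -0.15 and 0.14 there, against -0.11 and 0.10 in wild type. Most members fell, and the part of this wider response in their difference was not tested either.

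Promoter sequence was set beside these changes. The 250 bases before the transcription start were taken from RefSeq (GRCm38.p6) for 224 members, and were searched on both strands for ACGTG or GCGTG, the core that hypoxia-inducible factors bind. The core was present in 49.5% of the members' promoters and in 38.6% of all 32851 promoters of that length. It was present in 51.7% of the promoters of KRAB members, and in 42.6% of those of KRAB members that fell in both genotypes. The AP-1 motif TGANTCA, which JUN and FOS proteins bind, was present in 3.27% of the members' promoters and 6.75% of all, and the CRE half-site TGACG in 30.2% and 17.8%. The members' promoters had a median of 12 CpG dinucleotides and 55.2% GC, against 6 and 52.4% for all promoters. Below are the promoters of 3 genes that fell in both genotypes and 2 that rose in both, shown as those with the most negative and most positive average change among members with a single start in that table. They are written 5′ to 3′ toward the start site, with the HIF core in capitals on either strand (CACGT or CACGC on the printed strand is the core on the other).
Zfp760: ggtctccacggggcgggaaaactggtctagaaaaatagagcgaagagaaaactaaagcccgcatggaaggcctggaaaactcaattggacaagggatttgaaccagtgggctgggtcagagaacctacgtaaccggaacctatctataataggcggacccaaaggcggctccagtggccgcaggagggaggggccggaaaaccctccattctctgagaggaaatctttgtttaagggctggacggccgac
Zfp763: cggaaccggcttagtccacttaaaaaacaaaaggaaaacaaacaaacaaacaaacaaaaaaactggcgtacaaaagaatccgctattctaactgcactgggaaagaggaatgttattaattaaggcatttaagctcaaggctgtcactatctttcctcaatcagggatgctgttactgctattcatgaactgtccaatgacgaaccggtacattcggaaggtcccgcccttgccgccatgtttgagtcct
Zfp3: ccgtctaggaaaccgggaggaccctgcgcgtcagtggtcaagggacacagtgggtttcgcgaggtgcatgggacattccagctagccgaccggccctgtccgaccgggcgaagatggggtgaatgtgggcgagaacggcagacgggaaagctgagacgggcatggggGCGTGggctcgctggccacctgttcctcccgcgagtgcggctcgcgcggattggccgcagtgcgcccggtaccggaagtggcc
Zfp292: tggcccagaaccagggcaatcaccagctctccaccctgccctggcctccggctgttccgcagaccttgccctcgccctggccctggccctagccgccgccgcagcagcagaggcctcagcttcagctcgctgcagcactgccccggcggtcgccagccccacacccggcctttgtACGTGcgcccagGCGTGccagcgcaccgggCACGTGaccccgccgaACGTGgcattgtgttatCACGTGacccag
Zfp91: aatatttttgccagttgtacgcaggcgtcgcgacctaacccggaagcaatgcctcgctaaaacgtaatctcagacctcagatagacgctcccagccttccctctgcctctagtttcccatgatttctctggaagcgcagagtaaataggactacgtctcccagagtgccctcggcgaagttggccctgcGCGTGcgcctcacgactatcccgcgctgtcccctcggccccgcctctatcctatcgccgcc

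The Zfp760 window is chr17:21707491-21707740 on the plus strand, and the Zfp763 window is chr17:33033382-33033631 on the minus strand, and neither holds the core. The Zfp3 window, chr11:70764197-70764446 on the plus strand, holds 1 copy. It ends at the RefSeq start, which lies downstream of the GENCODE start of Zfp3, so most of this window, the marked copy included, lies inside the gene as GENCODE draws it. The Zfp292 window, chr4:34882949-34883198 on the minus strand, holds 7 matches when both strands are read, because each CACGTG run is matched on both. The Zfp91 window, chr19:12796124-12796373 on the minus strand, holds 1. A match here describes the letters and does not show that a factor binds.

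In several chromosomal clusters most members fell. Over all genes tested 10.4% fell in wild type and 19.6% in the double knockout. Of all members with a KRAB box, 39.1% and 70.2% fell. Whether place in a cluster matters beyond the KRAB box was not tested. Members were chained into clusters where neighbours lay within 500 kb, with 5 or more members, a grouping chosen after the values were seen. Reads from near-identical copies may have been split or shared among neighbours, so single values within a cluster are uncertain. In the chromosome 13 cluster (67038596 to 67827002, GRCm38), all 13 members had a KRAB box, 12 fell in the double knockout with a median log2 fold change of -0.52, and 6 fell in wild type with a median of -0.24. Zfp273 and Zfp759 had the largest changes there, at -0.78 and -0.74 in the double knockout (adjusted p = 0.000110 and 4.48e-05), and both were named after their values were seen. Zfp738 was the member that did not pass, at -0.36 (adjusted p = 0.103).

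The chromosome 17 cluster from 21008903 to 23599487, which holds Zfp760 and Zfp677, had 19 members, 18 of them with a KRAB box. Of the 19 members 11 fell in wild type and 15 in the double knockout. The medians of the cluster were -0.31 and -0.49. A single member of it rose in the double knockout, the KRAB gene Zfp948, from 6.36, 6.72 and 7.20 FPKM in normoxia to 9.78, 8.90 and 8.06 FPKM in hypoxia, a log2 fold change of 0.35 (SE 0.0902, adjusted p = 0.00874). Its wild type groups overlapped, at 6.56, 5.98 and 6.99 FPKM in normoxia against 7.69, 6.02 and 6.40 FPKM in hypoxia. A second cluster on chromosome 17 (32765496 to 33631779), which holds Zfp763, had 6 of 10 members lower in each genotype, and 9 of the 10 had a KRAB box. On chromosome 9 (20345136 to 20605409) 3 of 5 members fell in wild type and all 5 in the double knockout, and all 5 had a KRAB box.

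Other clusters had fewer calls. On chromosome 7 the cluster from 6131491 to 6396915 had no member of 5 called in either genotype (limma). At an unadjusted p under 0.05, 1 was higher and 1 lower in wild type, and 1 and 0 in the double knockout. Averaged over both genotypes, 1 of the 5 was called higher and 1 lower with hypoxia. The largest chromosome 7 cluster, from 29768552 to 30169750, had 2 of 15 members lower in wild type (13.3%, against 10.4% of all genes) and 7 in the double knockout (46.7%, against 19.6%). Averaged over the genotypes 11 of its 15 members fell (73.3%), against 22.9% of all genes. Near the end of the chromosome (127233061 to 127885996) 4 of 9 members fell in the double knockout and none was called lower in wild type (limma; 2 at an unadjusted p under 0.05), where Zfp771 rose. Over all the members, 128 were lower in wild type with no overlap of the libraries and 13 higher, against 19.4% and 18.8% of all genes. In the double knockout 177 were lower and 19 higher, against 24.6% and 25.6% of all genes.

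Members with a known function were read in 5 short lists. Over all genes tested, 10.4% fell and 10.5% rose in wild type, and 19.6% went each way in the double knockout. Of 6 that silence imprints and retroelements, 2 fell in wild type (33.3%) and 3 in the double knockout (50.0%). Zfp57, which guards methylated imprinting control regions, had 14.7, 18.9 and 16.4 FPKM in double knockout normoxia and 10.8, 12.1 and 12.4 FPKM in hypoxia, with no overlap and a log2 fold change of -0.46 (SE 0.0919, adjusted p = 0.00200). Its wild type libraries, with 17.4, 14.4 and 17.1 FPKM in normoxia against 14.4, 15.0 and 15.8 FPKM after hypoxia, overlapped (adjusted p = 0.457). Zfp445, which also protects imprints, fell by 0.18 in wild type (adjusted p = 0.0419) and by 0.27 in the double knockout (adjusted p = 0.00250). Zfp808 fell by 0.47 and 0.52 (adjusted p = 0.00927 and 0.00234). Zfp809, which silences murine leukaemia virus sequences, was not called, at 5.28 ± 0.138 FPKM and 5.24 ± 0.311 FPKM in wild type normoxia and hypoxia and 5.83 ± 0.811 FPKM and 4.94 ± 0.226 FPKM in the double knockout (SD, n = 3). It was called lower in the double knockout in 2 of 23 alternative settings, with array weights and without double knockout normoxia library 1 (adjusted p down to 0.00757).

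Of 11 sequence-specific regulators of cellular genes, 3 fell in wild type (27.3%) and 6 in the double knockout (54.5%), above the 10.4% and 19.6% of all genes. None was called higher (limma; 0 and 0 at an unadjusted p under 0.05). Zfp110, which binds the neurotrophin receptor p75 and carries a KRAB box, had 17.3, 18.4 and 17.3 FPKM in wild type normoxia, 12.5, 12.5 and 13.8 FPKM in wild type hypoxia, 15.6, 17.2 and 17.5 FPKM in double knockout normoxia and 11.6, 10.6 and 10.5 FPKM in double knockout hypoxia. The hypoxic libraries were all below the normoxic ones, and the log2 fold changes were -0.42 (SE 0.0590, adjusted p = 0.000619) and -0.58 (SE 0.0590, adjusted p = 2.08e-05). Zfp143, an activator at promoters of coding and small nuclear RNA genes, fell by 0.27 in wild type (adjusted p = 0.00695) and by 0.37 in the double knockout (adjusted p = 0.000381). Zfp263 and Zfp746, a repressor of the PGC-1alpha gene, fell in the double knockout by 0.35 each (adjusted p = 0.000452 and 0.000133) and did not pass in wild type, at -0.11 and -0.14.

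Of 10 proteins of RNA, ribosomes and the spindle, none was called in wild type (limma; 1 higher and 0 lower at an unadjusted p under 0.05), while in the double knockout 1 rose, Zfp106, and 2 fell. These shares, 10.0% and 20.0%, are under or near the 19.6% of all genes. Zfp622, a factor of large ribosomal subunit assembly, had 32.3, 33.0 and 35.8 FPKM in double knockout normoxia and 28.8, 29.4 and 28.6 FPKM in hypoxia, a fall of 0.21 on the log2 scale (adjusted p = 0.00215). Zfp318 fell by 0.24 (adjusted p = 0.0321) but lost the call in 8 of 22 alternative settings (adjusted p up to 0.114), which included leaving out double knockout normoxia libraries 1 and 2 and double knockout hypoxia libraries 1, 2 and 3. Zfp346, which binds double-stranded RNA, did not pass at -0.41 (adjusted p = 0.0530), with overlapping groups. It was called lower in 5 of 23 alternative settings (adjusted p down to 0.0136), among them without wild type hypoxia library 1, double knockout normoxia library 1 or double knockout hypoxia library 2.

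Of 11 partners of chromatin complexes, 1 rose in wild type (9.09%, against 10.5% of all genes). In the double knockout 2 rose and 3 fell (18.2% and 27.3%, against 19.6% each way), which is near the background. The rises were those of Zfp292 and Zfp609. Zfp608 fell by 0.34 in the double knockout (adjusted p = 0.0107) and Zfp687 by 0.26 (adjusted p = 0.0207), of which Zfp687 lost the call in 4 of 22 alternative settings (adjusted p up to 0.0780), which included leaving out double knockout normoxia library 2 and double knockout hypoxia libraries 2 and 3. Of 7 genes of differentiation and signalling, none was called in wild type (limma; 1 higher and 1 lower at an unadjusted p under 0.05) and 2 fell in the double knockout (28.6%, against 19.6% of all genes). These were Zfp503, by 0.18 (adjusted p = 0.0228), and Zfp521, a regulator of blood and bone cell differentiation, by 0.14 (adjusted p = 0.0179). Zfp503 lost the call in 6 of 23 alternative settings (adjusted p up to 0.0966), which included leaving out double knockout normoxia libraries 1 and 2 and double knockout hypoxia libraries 2 and 3. Zfp521 lost the call in 2 of 23 alternative settings (adjusted p up to 0.0771), namely when double knockout normoxia library 2 and double knockout hypoxia library 3 were in turn left out.

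Genes of the machinery that KRAB proteins recruit changed in both directions. Of 27 tested co-repressor genes, 6 fell and 1 rose in wild type (22.2% and 3.70%, against 10.4% and 10.5% of all genes). Of the same genes, 3 fell and 9 rose in the double knockout (11.1% and 33.3%, against 19.6% each way). Trim28, the KRAB-binding co-repressor, had 106, 106 and 104 FPKM in wild type normoxia, 113, 110.0 and 111 FPKM in wild type hypoxia, 105, 109 and 108 FPKM in double knockout normoxia and 123, 121 and 121 FPKM in double knockout hypoxia. It rose by 0.18 in the double knockout (adjusted p = 0.000297), and the 0.08 of wild type did not pass (adjusted p = 0.0722). Trim24, a relative of Trim28, rose by 0.23 and 0.42 (adjusted p = 0.0222 and 0.000273), and Chd4, a remodeller of the NuRD complex, by 0.29 in the double knockout (adjusted p = 0.000997). Morc3, a silencing ATPase, fell by 0.34 and 0.41 (adjusted p = 0.00210 and 0.000172). In wild type Uhrf1, Dnmt1 and Pphln1 fell too, by 0.38, 0.22 and 0.22 (adjusted p = 0.00787, 0.0184 and 0.0134). Dnmt1 lost that call in 4 of 23 alternative settings (adjusted p up to 0.0619). Setdb1, named here after its values were seen, fell by 0.26 in the double knockout (adjusted p = 0.00454). By genotype, Dnmt1, Uhrf1, Trim24 and Sumo2 were lower in double knockout normoxia. Their log2 fold changes were -0.36, -0.39, -0.27 and -0.12 (limma, adjusted p = 0.00266, 0.0120, 0.0182 and 0.0237). Trim24 lost this call in 3 of 23 alternative settings (adjusted p up to 0.0657) and Uhrf1 in 1 of 23 (adjusted p up to 0.0528). In hypoxia Chd3, Mta2 and Trim28 were higher, at 0.39, 0.16 and 0.13 (adjusted p = 0.00607, 0.00407 and 0.00713). Sumo2 was lower, at -0.11 (adjusted p = 0.0212), and lost each call in 6 of 23 alternative settings.

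In normoxia the genotypes differed little in the members. In the double knockout 9 members were lower and 3 higher than in wild type, or 3.33% and 1.11%, against 4.32% and 3.84% of all genes tested (8.16% in either direction), and the median was -0.01 for the members and -0.01 for all genes. Most of the members called lay near the deleted gene Map3k10 on chromosome 7. Of 30 members within 5 Mb of Map3k10 or Map3k11, 6 were lower and 2 higher, while of the other 240 members 3 were lower and 1 higher. Among all genes within that distance, 7.77% were lower and 5.83% higher. Sequence carried from the strain in which a gene was targeted and an effect of the missing kinases cannot be told apart in this interval.

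Zfp235 (ENSMUSG00000047603, GRCm38 chromosome 7, 24134169 to 24143241), a KRAB gene, had 5.45, 5.30 and 5.57 FPKM in wild type normoxia and 2.77, 3.06 and 2.69 FPKM in double knockout normoxia. In hypoxia it had 4.26, 3.93 and 4.23 FPKM in wild type and 1.95, 2.10 and 2.44 FPKM in the double knockout. The genotypes did not overlap at either oxygen level, and the log2 fold changes were -0.75 (SE 0.0705, adjusted p = 5.00e-05) and -0.70 (SE 0.0705, adjusted p = 6.49e-05). Zfp27 and Zfp111, also on chromosome 7, were lower in normoxia by 0.54 and 0.49 (adjusted p = 0.000500 and 0.00620) and in hypoxia by 0.57 and 0.63 (adjusted p = 0.000235 and 0.000770). Zfp109, Zfp84 and Zfp180 were lower in normoxia too, at -0.43, -0.27 and -0.19 (adjusted p = 0.0274, 0.00690 and 0.0264). Zfp109 lost the call in 6 of 21 alternative settings (adjusted p up to 0.101), which included leaving out wild type normoxia libraries 2 and 3 and double knockout normoxia libraries 2 and 3.

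Zfp14 (ENSMUSG00000053985, GRCm38 chromosome 7, 30036359 to 30051380), a KRAB gene, went the other way. It had 2.51, 2.49 and 2.14 FPKM in wild type normoxia and 4.94, 6.37 and 5.98 FPKM in double knockout normoxia, then 1.83, 1.67 and 2.55 FPKM in wild type hypoxia and 2.73, 3.34 and 2.72 FPKM in double knockout hypoxia. The double knockout libraries were above the wild type libraries at both oxygen levels, with log2 fold changes of 1.00 (SE 0.118, adjusted p = 0.000284) and 0.39 (SE 0.118, adjusted p = 0.0424). In hypoxia Zfp14 lost the call in 11 of 21 alternative settings (adjusted p up to 0.155), which included leaving out wild type normoxia libraries 1 and 2, wild type hypoxia libraries 1 and 2, double knockout normoxia library 3 and double knockout hypoxia libraries 1, 2 and 3. Zfp30, a gene linked to neutrophil recruitment in mouse airways, was higher by 0.34 in normoxia and 0.33 in hypoxia (adjusted p = 0.0171 and 0.0125). In normoxia Zfp30 lost the call in 4 of 21 alternative settings (adjusted p up to 0.0672), which included leaving out wild type normoxia libraries 1 and 2 and double knockout normoxia library 2. In hypoxia it lost the call in 1 of 21 alternative settings (adjusted p up to 0.0508), namely when double knockout hypoxia library 1 was left out.

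**Figure D5:**
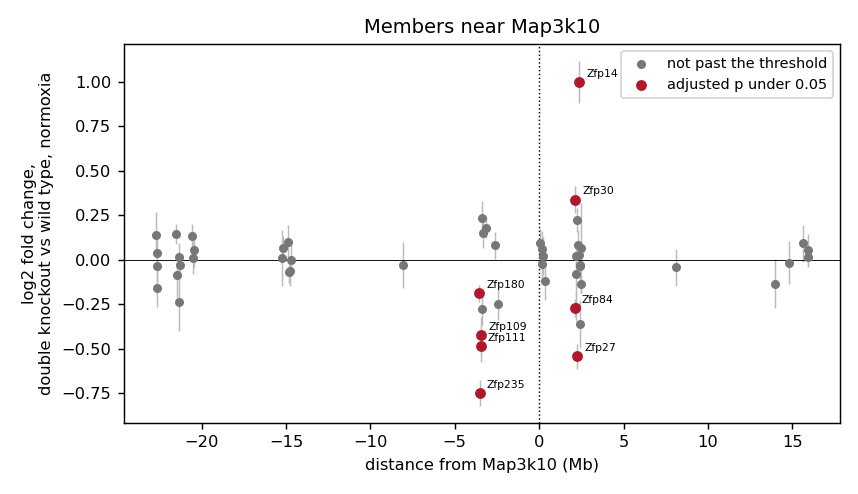
Log2 fold change of the double knockout against wild type in normoxia (vertical, bars are standard errors) by distance from Map3k10 in Mb (horizontal), for members within 25 Mb of it on chromosome 7; red points passed an adjusted p of 0.05. All 8 red points lie within 5 Mb of Map3k10, 6 below and 2 above 0.

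Away from both deleted genes, Zfp697 on chromosome 3 had the largest loss in normoxia. It had 5.13, 4.55 and 4.45 FPKM in wild type normoxia, 3.10, 3.32 and 3.06 FPKM in double knockout normoxia, 6.02, 5.90 and 5.68 FPKM in wild type hypoxia and 2.87, 3.02 and 2.71 FPKM in double knockout hypoxia. All double knockout libraries were below all wild type libraries, and the log2 fold changes were -0.45 (SE 0.0639, adjusted p = 0.000958) in normoxia and -0.83 (SE 0.0639, adjusted p = 8.85e-06) in hypoxia. Zfp711, an X-linked gene that works with the histone demethylase PHF8, was higher, at 2.69, 2.92 and 2.83 FPKM against 1.49, 1.45 and 1.42 FPKM in normoxia, a log2 fold change of 0.63 (SE 0.109, adjusted p = 0.00368). Zfp367 and Zfp266 were lower in normoxia by 0.29 and 0.22 (adjusted p = 0.0181 and 0.0344), of which Zfp367 lost the call in 2 of 23 alternative settings (adjusted p up to 0.0764), namely when wild type normoxia library 3 and double knockout normoxia library 2 were in turn left out. Macrophage markers were also higher in the double knockout, with a summed level of 87.4 to 98.6 FPKM against 38.9 to 49.5 FPKM in wild type normoxia and 82.0 to 91.8 FPKM against 50.4 to 50.6 FPKM in hypoxia. Of these 8 markers 3 had a mean of 1 FPKM or more and Itgam was under 0.1. Summed fibroblast markers were higher too, at 4.14 to 4.20 against 1.72 to 2.57 FPKM in normoxia. In hypoxia they had 3.88 to 4.43 against 1.72 to 2.19 FPKM. Smooth muscle and pericyte markers were lower, at 25.4 to 26.8 against 27.5 to 35.9 FPKM in normoxia. In hypoxia they had 27.3 to 32.7 against 34.8 to 45.5 FPKM. The part of such cells in these genotype differences was not tested.

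In hypoxia the genotypes differed more. In the double knockout 53 members were lower and 6 higher than in wild type, or 19.6% and 2.22%, against 8.42% and 7.68% of all genes tested (16.1% in either direction), with a median of -0.13 for the members and 0.00 for all genes. Of the members with a KRAB box 40 were lower and 5 higher (26.5% and 3.31%). Of those without one 12 were lower and 1 higher (10.2% and 0.847%), and this 10.2% is near the 8.42% of all genes. Beyond 5 Mb of the deleted genes 40 of 240 members were lower and 3 higher (16.7% and 1.25%). Among all genes beyond that distance the shares were 8.25% and 7.72%. Without wild type hypoxia library 2 the number of members called fell from 59 to 39. Averaged over both oxygen levels, 44 members were lower and 8 higher in the double knockout, against 10.2% and 8.89% of all genes.

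The largest losses were those of Zfp125, Zfp697, Zfp235, Zfp763, Zfp82 and Zfp111. Zfp125 had 3.14, 5.38 and 4.64 FPKM in wild type hypoxia and 2.25, 1.74 and 1.85 FPKM in double knockout hypoxia, a log2 fold change of -0.85 (SE 0.167, adjusted p = 0.00517), while its normoxic groups overlapped, at 6.72, 5.16 and 4.35 FPKM and 4.34, 3.87 and 5.28 FPKM. Zfp763 differed by -0.66 in hypoxia (adjusted p = 0.00514) and by -0.01 in normoxia (adjusted p = 0.980). Zfp82, in the chromosome 7 cluster that holds Zfp14, differed by -0.63 (adjusted p = 0.00841).

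The genes higher in double knockout hypoxia were Zfp711, Zfp14, Zfp948, Zfp30, Zfp383 and Zfp52. Zfp711 was higher by 0.51 (adjusted p = 0.00828) and Zfp948 by 0.37 (adjusted p = 0.0174), and Zfp948 lost the call in 3 of 23 alternative settings (adjusted p up to 0.0740), namely when wild type hypoxia libraries 2 and 3 and double knockout hypoxia library 1 were in turn left out. Zfp383 on chromosome 7 was higher by 0.30 (adjusted p = 0.0104). Zfp52, the most abundant member of the larger chromosome 17 cluster, had 28.0, 27.0 and 29.7 FPKM in wild type hypoxia and 33.7, 34.2 and 33.2 FPKM in double knockout hypoxia, without overlap and with a log2 fold change of 0.25 (SE 0.0463, adjusted p = 0.00383).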

How the data were processed

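The authors deposited FPKM values of 52655 transcripts for 12 libraries. TopHat2 aligned the reads, per the submitters' processing notes. Not given in the sources used here were its version, the genome build and the quantifying tool. RNeasy Plus and NEBNext Ultra kits were used, per the labels' protocols. FPKM was summed per gene identifier, and genes with a mean of 1 or more were fitted on log2(FPKM + 1) in limma 3.58.1 (R 4.3.3) with 1 coefficient per group over all 12 libraries, 8 residual degrees of freedom and a variance trend. P-values were adjusted by Benjamini-Hochberg over all 11378 genes within each of 7 comparisons, with a threshold of 0.05. The members and the gene lists were chosen with earlier results of these data known, and no list was tested as a set.

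Gene positions, lengths and GC content are those of GENCODE M21 (GRCm38). A KRAB box was called where at least 7 of 8 anchor residues of its A-box matched before the first finger in the translated GENCODE coding sequence, which took the place of a RefSeq protein table in the plan. The step between low values of 10758 genes with 1 transcript gave each library's depth, at which 84.6 to 91.9% of those values came within 0.1 of whole numbers. Promoters came from RefSeq.

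Genes were named by a fixed rule. In each comparison of groups these were up to 6 members with the largest change each way among those called whose libraries did not overlap, and up to 4 each way in the others. Added were the 5 most abundant members, up to 4 per functional list, those next to the 1 FPKM limit, Map3k10 and Map3k11. Up to 4 called co-repressor genes were added in each comparison of groups. Other genes named were chosen after their values were seen. The alternatives were another pseudocount (0.1), no filter or a mean of 5 FPKM, 2 other normalizations, only the compared libraries, no variance trend, array weights, a replicate block, removal of the GC and length trend, omission of chromosomes 7 and 19 and of each library in turn. The limma fit was also run on simulated data. Same-numbered libraries did not deviate together across groups (correlations of -0.084 to 0.052), so the numbers were not treated as pairs. Markers of smooth muscle, epithelium, fibroblasts, lymphocytes and erythroid cells were also read, with summed levels of at most 45.5, 31.5, 4.43, 0.460 and 0.107 FPKM in any library.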

Additional observations from a re-analysis of the deposited data

Results flagged for a closer look

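The hypoxia response of Zfp760 differed between the genotypes in the test of the difference itself (limma, -0.656 on the log2(FPKM + 1) scale, SE 0.107, adjusted p = 0.0354). Zfp760 fell by 0.61 in wild type and by 1.26 in the double knockout, and the 3 double knockout hypoxia libraries lay below every other library. It was the single member past the threshold, against 0.193% of all genes tested. The call was lost in 13 of 21 alternative settings, with an adjusted p of up to 0.125.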

How the results depend on the processing

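The naming rule picked 93 values past the threshold, not all of which are printed here. Of these 71 kept their call in every alternative and 22 lost it in at least 1, 9 of them only when a library was left out. No called value reversed. Of 20 picked values not past the threshold, 8 passed in at least 1 alternative. Members called with each library left out ranged from 49 to 87 for hypoxia in wild type (84 with all), 141 to 166 in the double knockout (163), 8 to 13 for genotype in normoxia (12), 39 to 61 for genotype in hypoxia (59), 0 to 1 for the difference of responses (1), 165 to 177 for the average oxygen effect (179) and 37 to 56 for the average genotype effect (52). A mean of 5 FPKM or more, which keeps 126 members, gave 41, 65, 4, 24, 0, 73 and 18 in that order. Leaving out chromosomes 7 and 19, and so their members, gave 4 for genotype in normoxia, 38 in hypoxia and 33 for the average. For the difference of responses, no filter, quantile normalization and the replicate block gave 0 and array weights gave 3; the cause was not tested. With the replicate block the other counts were 75, 159, 11, 59, 178 and 51. Uncalled values near 0 changed sign for Zfp330 with a library left out (genotype in hypoxia, -0.014 to 0.048; in normoxia, -0.013, without wild type library 2, to 0.054, and -0.0011 without double knockout library 3), Zfp260 (genotype in normoxia, 0.0016 with the GC and length trend removed; -0.057 to 0.0049 with a library left out), Zfp91 (genotype in normoxia, 0.0028 with that trend removed) and Zfp207 (hypoxia in wild type, -0.029 under quantile normalization). Members near 1 FPKM were the most weakly expressed of those kept, and the part of depth in their values was not tested.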

Other observations

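In 2 members a single library stood far above the rest, and both were chosen after their values were seen. Zfp629, with 9 transcripts in the table, had 2.47, 23.7 and 2.40 FPKM in double knockout hypoxia and 2.16 to 3.27 FPKM in the other 9 libraries. Zfp691, with 4 transcripts, had 3.03, 16.4 and 4.09 FPKM in double knockout normoxia and 2.49, 7.18 and 2.56 FPKM in wild type hypoxia. Neither was called in any comparison, and their standard errors for a comparison of groups, at 0.559 and 0.457, were the size of the changes of the leading genes.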
